A study of Mus musculus with 10 samples.

Results

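The change in mRNA levels of mouse macrophages between 1 h and 3 h of AmTARS was described by setting the 2 libraries made at 3 h (replicates 1 and 3) against the 2 made at 1 h (replicates 2 and 3). These are 4 of the 10 libraries of the series, and every gene with a mean of at least 1 CPM (counts per 1000000 reads, on the authors' own scaling of the libraries) over the 10 libraries was compared, 11407 of the 11617 listed. The cells were bone-marrow-derived macrophages of C57BL/6 mice, aged 6 weeks by one label and 7 weeks by another, and every group had been cultured in DMEM supplemented with 10% fetal bovine serum and with GM-CSF at 50 ng/ml, which drives myeloid cells to grow and differentiate. AmTARS was given at 0.5, in a unit that the labels write as mm, for 3 h or 1 h. Cells given 10 ng/ml Pam3CSK4 for 3 h or 1 h and control cells with no stated time, 2 libraries a group, serve below as points of comparison. The series record states as its aim a comparison of mRNA under AmTARS and Pam3CSK4, both taken as ligands of the receptor TLR2. Whether replicates were different cultures or different mice is in none of the labels, so the p-values below measure the spread between libraries, which may be technical.

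AmTARS can be read as the threonyl-tRNA synthetase of Akkermansia muciniphila, a bacterium of the gut mucus, and Pam3CSK4 is a synthetic lipopeptide that binds TLR2 together with TLR1. When TLR2 is engaged, the adaptors TIRAP and MyD88 pass the signal through IRAK kinases and TRAF6 to the transcription factor NF-kB and to MAP kinases. In macrophages a first wave of transcripts, which codes for immediate-early transcription factors and cytokines such as TNF, appears and decays early. Later waves code for metabolic enzymes, receptors and inhibitors of the pathway. Sterol synthesis is a separate programme of macrophages: the transcription factor SREBP-2 switches on nearly every enzyme between acetyl-CoA and cholesterol, and interferons and TLR ligands are known to alter it.

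Reads in the listed genes numbered 37559810 and 37373107 in the AmTARS 3 h libraries, against 37226465 and 32446075 in the AmTARS 1 h libraries. All 10 macrophage markers examined were measured, and their summed level was 51028.9 to 53876.1 CPM at 3 h, against 52505.9 to 54177.6 CPM at 1 h. Of these 10, only the co-receptor gene Cd14 passed the test. Markers of other cells that such cultures can hold were at similar sums at both times: 9 of 10 neutrophil markers summed to 1822 to 1912 CPM at 3 h, against 1824 to 1892 CPM at 1 h, and 7 of 7 fibroblast and stroma markers to 1421 to 1507 CPM at 3 h, against 1350 to 1478 CPM at 1 h. None of these passed the test, and the defining markers of NK and erythroid cells were not among the genes tested. In a culture of mixed cells, fewer cells of a type and less RNA per cell cannot be told apart.

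Few transcripts changed between 1 h and 3 h of AmTARS, most of the changes were rises, and all were small. In limma's test with Benjamini-Hochberg adjustment over all 11407 genes, 271 genes (2.38%) passed an adjusted p of 0.05. Of these 206 (1.81%) were higher at 3 h and 65 (0.57%) were lower. Changes are given as the log2 difference, the mean log2(CPM + 1) at 3 h minus that at 1 h, with its moderated standard error (SE). The median log2 difference was 0.34 among the genes that rose, -0.28 among those that fell and 0.00 over all genes. Mean CPM was above the control mean for 81 of the 206 risers at 1 h and for 173 at 3 h. Among the 65 that fell, 42 were above it at 1 h and 9 at 3 h. Not every rise was therefore a rise above control. The same counts over all genes were not taken. These genes were chosen by the difference between the 2 times, so such shifts against a fixed control mean go with the choice. The listed genes also summed to less in the control libraries (959639 and 960837 CPM) than in the AmTARS libraries (1000400 to 1012830 CPM). Only 20 genes (0.175%) changed at least 1.5-fold on this log2(CPM + 1) scale, of which 18 rose and 2 fell, and no gene that passed reached 2-fold on it. In all 271 genes both libraries of one time lay apart from both of the other, as they did for 23.1% of all genes upward and 21.1% downward. Without AmTARS 1 h replicate 2, AmTARS 1 h replicate 3, AmTARS 3 h replicate 1 or AmTARS 3 h replicate 3, the count of changed genes was 95, 158, 147 or 89, and 68 genes (64 higher and 4 lower) kept their call whichever of the 10 libraries was left out. The log2 difference was weakly related to transcript length across genes (Spearman 0.20, 11364 genes), and with length and GC content corrected in each library 446 genes changed, all 271 among them.

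**Figure D1:**
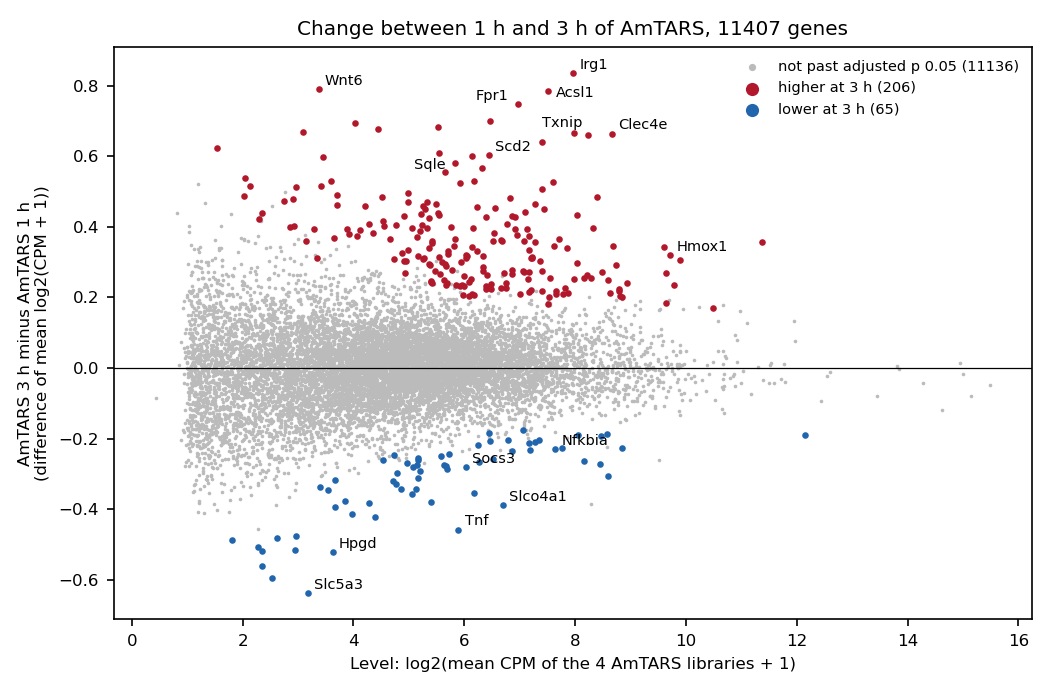
Each point is 1 of 11407 genes, with its level as log2(mean CPM + 1) over the 4 AmTARS libraries on the horizontal axis and the log2 difference AmTARS 3 h minus AmTARS 1 h on the vertical axis. The 206 genes higher at 3 h reach 0.84 (Irg1) and the 65 lower genes reach -0.64 (Slc5a3), while 11136 genes in grey did not pass.

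The largest rise was that of Irg1. Irg1 (Acod1, chr14:103046977-103056573 in mm10), which codes for the enzyme that makes the antimicrobial metabolite itaconate, had 309 and 332 CPM in the AmTARS 3 h libraries, against 182 and 176 CPM in the AmTARS 1 h libraries. The control libraries had 179 and 179 CPM, so the 1 h value stood at the control level and the 3 h value above it. The log2 difference was 0.84 (SE 0.08, adjusted p = 2.01e-06), a ratio of mean CPM of 1.79. Acsl1, which activates long-chain fatty acids with coenzyme A, had 221 and 237 CPM at 3 h, against 131 and 135 CPM at 1 h (155 and 157 CPM in control). Both 3 h libraries of Acsl1 lay above every control library and both 1 h libraries below, with a log2 difference of 0.78 (SE 0.07, adjusted p = 2.01e-06). Wnt6, a secreted Wnt ligand, was rarer, with 12.16 and 12.02 CPM at 3 h, against 6.402 and 6.743 CPM at 1 h (log2 difference 0.79).

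Among the 12 largest rises were 3 receptor genes. Fpr1, a receptor for formylated bacterial peptides, had 159 and 151 CPM at 3 h, against 94.4 and 89.6 CPM at 1 h (log2 difference 0.75, SE 0.08). Gpr84, a receptor for medium-chain fatty acids, had 19.3 and 18.9 CPM at 3 h, against 11.2 and 11.7 CPM at 1 h (log2 difference 0.69). Clec4e codes for Mincle, a lectin receptor for mycobacterial glycolipids. It was among the more abundant of these transcripts, with 501 and 494 CPM at 3 h, against 314 and 313 CPM at 1 h (log2 difference 0.66, SE 0.08). The control libraries had 93.4 and 99.6 CPM for Fpr1, 9.05 and 9.55 CPM for Gpr84 and 286 and 314 CPM for Clec4e, all below the 3 h libraries of the same gene.

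The others of the 12 largest rises came from genes of several roles. Irak3 codes for a kinase-dead IRAK that restrains TLR signalling, and it had 106 and 111 CPM at 3 h, against 67.7 and 65.2 CPM at 1 h (log2 difference 0.70). Sod2, the mitochondrial superoxide dismutase, had 313 and 303 CPM at 3 h, against 198 and 190.1 CPM at 1 h (log2 difference 0.66). Ptges, the inducible prostaglandin E synthase, had 53.5 and 58.6 CPM at 3 h, against 34.5 and 34.5 CPM at 1 h (log2 difference 0.68). Hpgd, whose enzyme inactivates prostaglandins, moved the other way and is described with the falls. Egln3, an oxygen-sensing prolyl hydroxylase, rose by 0.68 and Ifi205, an interferon-inducible gene of the p200 family, by 0.67 on the log2 scale. Of the 12 largest rises, these 2 alone lost the call when 1 library was left out: Egln3 without AmTARS 3 h replicate 3 (adjusted p = 0.0729), and Ifi205 without AmTARS 1 h replicate 3 or AmTARS 3 h replicate 3 (adjusted p up to 0.0868).

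Among the 12 largest rises, Txnip alone was still below control at 3 h. Acsl1 and Irak3 (79.5 and 74.6 CPM in control) also had both 1 h libraries below both control libraries, but both 3 h libraries above them. Fpr1, Egln3 and Ifi205 had a 1 h mean below the control mean, but their 1 h libraries overlapped those of control. Txnip codes for a thioredoxin-binding arrestin that limits glucose uptake. Its level was 463 and 452 CPM in control, 229.8 and 232 CPM at 1 h and 369 and 361 CPM at 3 h of AmTARS. The 1 h libraries were thus the lowest, and the 3 h libraries stood between them and the control. The log2 difference of 3 h against 1 h was 0.66 (SE 0.04, adjusted p = 1.31e-08), the lowest adjusted p of the named genes. With Pam3CSK4 the same gene was at 379 and 377 CPM at 3 h, against 421 and 420.3 CPM at 1 h, and fell by 0.15 on the log2 scale (adjusted p = 0.00766). Arrdc4, a related arrestin gene with the same glucose-sensing regulation, had 43.8 and 46.3 CPM at 3 h of AmTARS, against 35.0 and 38.4 CPM at 1 h (log2 difference 0.29), a call lost without AmTARS 1 h replicate 2 or AmTARS 3 h replicate 3 (adjusted p up to 0.254). Of 7 arrestin-domain and glucose-sensing genes measured, these 2 rose and none fell.

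**Figure D2:**
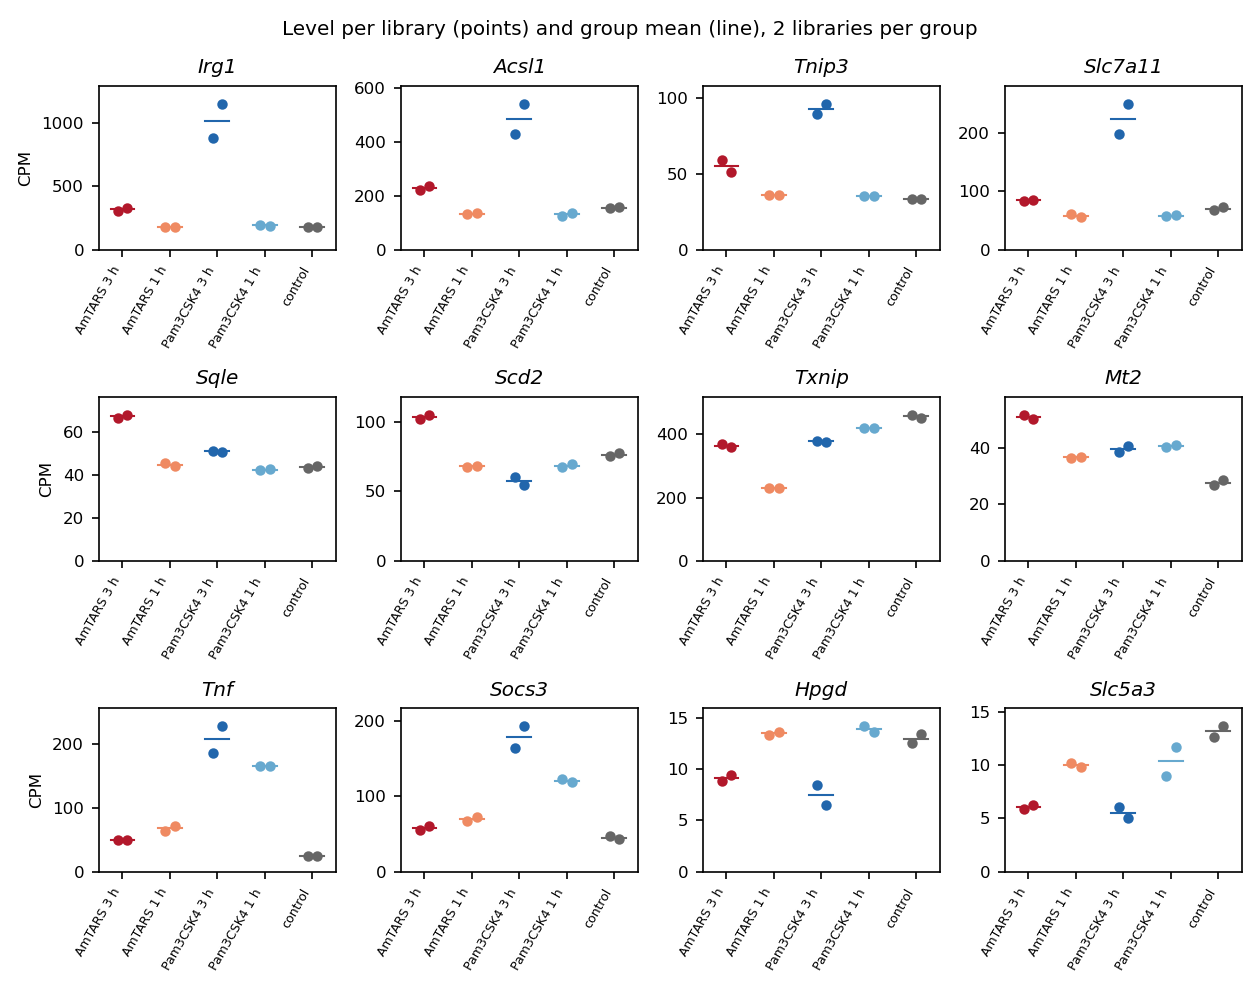
Level in CPM (linear axis from 0) of 12 genes in each library, as points with the group mean as a line, in the order AmTARS 3 h, AmTARS 1 h, Pam3CSK4 3 h, Pam3CSK4 1 h and control, 2 libraries each. Sqle, Scd2 and Mt2 are highest at 3 h of AmTARS, Irg1, Acsl1, Tnip3 and Slc7a11 are highest at 3 h of Pam3CSK4, and Txnip is lowest at 1 h of AmTARS.

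Of the 39 gene lists examined, that of sterol synthesis had the largest share of changed members. List counts here and below stand beside 1.81% of all genes that rose and 0.57% that fell. Counts of 1 or 2 members are not read as results about a list. Of the 20 enzymes of the route from acetyl-CoA to cholesterol, all measured, 15 were higher at 3 h than at 1 h of AmTARS and none was lower. Their median log2 difference was 0.40, against 0.00 for all genes. Enzymes of early, middle and late steps were among those that rose. Among the early enzymes, Acat2, which condenses acetyl-CoA, had 14.7 and 13.7 CPM at 3 h, against 10.7 and 9.31 CPM at 1 h (log2 difference 0.46). Hmgcs1, which makes HMG-CoA, had 91.2 and 99.7 CPM at 3 h, against 82.8 and 78.6 CPM at 1 h (log2 difference 0.24, adjusted p = 0.019). This was the smallest of the 15 rises.

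The isoprenoid enzymes Mvd, Idi1, Fdps and Fdft1, which lead from mevalonate to squalene, rose by 0.30, 0.39, 0.43 and 0.44 on the log2 scale. Sqle (chr15:59315077-59331192), the squalene epoxidase and a second control point of the route, rose most. It had 66.7 and 68.2 CPM at 3 h, against 45.5 and 44.0 CPM at 1 h, and the control libraries had 43.1 and 44.1 CPM. The 1 h libraries were close to control and both 3 h libraries above all of these, with a log2 difference of 0.58 (SE 0.05, adjusted p = 1.68e-06). Lss, which closes the squalene ring to lanosterol, had 34.8 and 37.1 CPM at 3 h, against 25.7 and 24.7 CPM at 1 h (log2 difference 0.49, SE 0.06, adjusted p = 6.77e-05). Cyp51, which removes a methyl group from lanosterol, had 84.5 and 87.0 CPM at 3 h, against 64.7 and 59.9 CPM at 1 h (log2 difference 0.46).

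The enzymes that turn lanosterol into cholesterol followed. Msmo1 and Nsdhl, which act in demethylation at carbon 4, rose by 0.39 and 0.40, and Hsd17b7, which acts in the same complex, had 14.2 and 14.1 CPM at 3 h, against 9.82 and 9.74 CPM at 1 h (log2 difference 0.49). Sc5d, the sterol desaturase, rose by 0.41. The 5 enzymes that did not pass had log2 differences of 0.21 for Pmvk, 0.18 for Mvk, 0.06 for Dhcr7, 0.02 for Ebp and -0.01 for Tm7sf2. In Tm7sf2, a sterol reductase, the groups overlapped, with 10.11 and 8.191 CPM at 3 h, against 9.386 and 9.001 CPM at 1 h. Members beyond the 5 largest were named after their values were seen. With 1 AmTARS library left out, the number of enzymes that rose was 12 without 1 h replicate 2, 11 without 1 h replicate 3, 13 without 3 h replicate 1 and 11 without 3 h replicate 3. Of the 15 calls, 10 were kept whichever of the 10 libraries was left out, and those of Acat2, Hmgcs1, Mvd and Idi1 were among the calls that were not. Their adjusted p rose to as much as 0.073 for Acat2, 0.429 for Hmgcs1, 0.0796 for Mvd and 0.566 for Idi1.

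**Figure D3:**
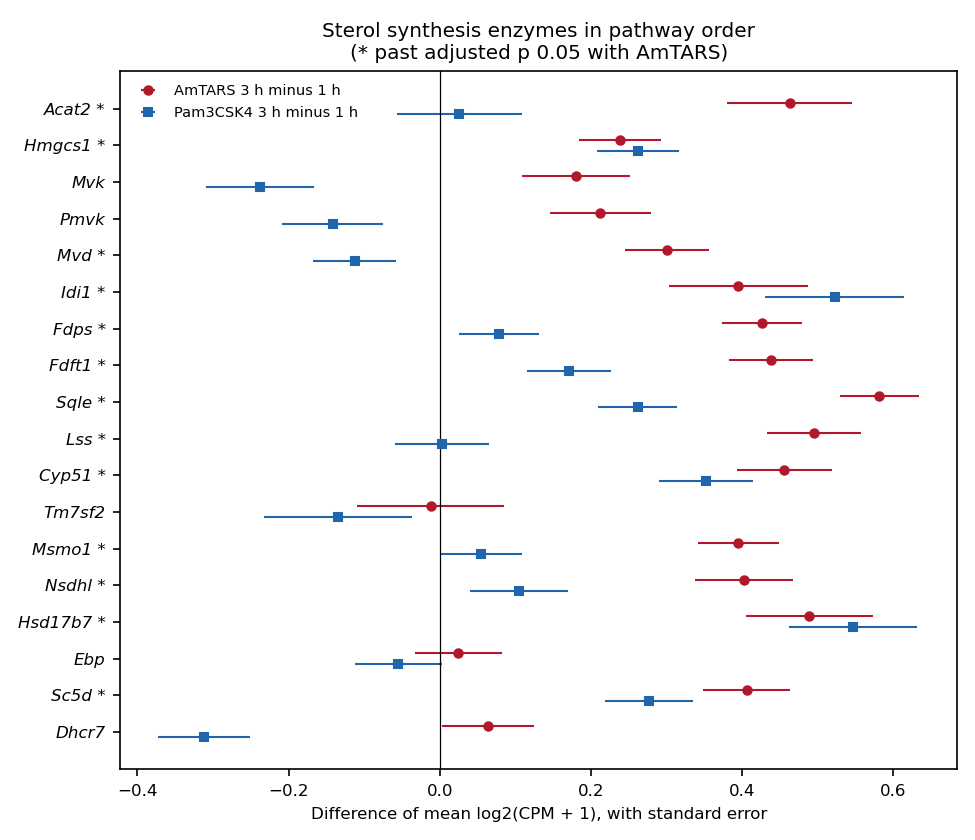
Log2 difference (3 h minus 1 h, with its standard error) of 18 of the 20 sterol synthesis enzymes from the first step at the top to the last at the bottom, with AmTARS as circles and Pam3CSK4 as squares. With AmTARS 13 of those drawn (marked with a star) rose, Sqle most with 0.58, and 11 of those drawn changed differently under the 2 ligands, each with the higher value for AmTARS.

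With Pam3CSK4 fewer of these enzymes rose. Of the 20, 8 rose and 2 fell between 1 h and 3 h of Pam3CSK4, where 16.2% of all genes rose and 15.3% fell. The difference between the 2 time changes was tested per gene as an interaction, in which 1049 genes (9.2%) passed. It passed for 12 of the 20 enzymes, all 12 with the higher log2 difference for AmTARS. For Lss the time change was 0.49 with AmTARS and 0.00 with Pam3CSK4, where the libraries had 25.3 and 24.3 CPM at 3 h, against 24.3 and 25.1 CPM at 1 h (interaction adjusted p = 0.000742). For Dhcr7, not past the threshold with AmTARS, the Pam3CSK4 libraries had 28.3 and 26.7 CPM at 3 h, against 33.4 and 35.3 CPM at 1 h (log2 difference -0.31, interaction adjusted p = 0.00642). Hmgcs1, Idi1, Cyp51, Hsd17b7 and Sc5d rose under both ligands, and for these the interaction did not pass.

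Sterol enzymes are known targets of SREBP-2, which binds sterol regulatory elements beside CCAAT boxes, the sites of NF-Y. The stretches of 250 bases before the start are shown for 3 of the enzymes that rose, Hmgcs1, Mvd and Sc5d. Their windows, from RefSeq (GRCm38.p6), hold no exon base of any gene in GENCODE M21. Exon bases in the windows of the other enzymes are not reported here. Capitals mark CCAAT on either strand (ATTGG on the strand shown) and the letters TCACNCCAC on either strand. Hmgcs1 lies at chr13:119690101-119690350 on the plus strand, Mvd at chr8:122443423-122443672 and Sc5d at chr9:42264301-42264550, both on the minus strand, and each is written 5′ to 3′ on the strand of its gene.
Hmgcs1: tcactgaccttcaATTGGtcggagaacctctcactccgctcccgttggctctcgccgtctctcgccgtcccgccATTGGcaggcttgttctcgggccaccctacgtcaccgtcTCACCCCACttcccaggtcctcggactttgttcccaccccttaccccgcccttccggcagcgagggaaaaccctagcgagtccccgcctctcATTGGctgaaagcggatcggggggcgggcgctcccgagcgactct
Mvd: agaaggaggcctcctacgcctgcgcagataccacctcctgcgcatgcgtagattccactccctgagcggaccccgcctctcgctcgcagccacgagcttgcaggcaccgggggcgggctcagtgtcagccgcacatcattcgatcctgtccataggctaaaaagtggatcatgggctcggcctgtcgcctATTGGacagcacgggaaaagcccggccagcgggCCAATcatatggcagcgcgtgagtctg
Sc5d: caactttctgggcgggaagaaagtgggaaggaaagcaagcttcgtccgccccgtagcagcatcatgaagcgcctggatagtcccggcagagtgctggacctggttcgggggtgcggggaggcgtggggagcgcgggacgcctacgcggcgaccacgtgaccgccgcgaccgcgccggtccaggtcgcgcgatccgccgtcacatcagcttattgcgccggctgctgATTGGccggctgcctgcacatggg
The Hmgcs1 window held 3 CCAAT boxes and 1 match to TCACNCCAC, which begins 137 bases before the start, between the CCAAT boxes that begin at -176 and -45. The Mvd window held 2 CCAAT boxes, in opposite orientations, and the Sc5d window 1. A CCAAT box was present in the 250 bases before a start for 14 of the 15 sterol enzymes that have a window, all but Acat2, and for 40.4% of 9104 tested genes with a window. TCACNCCAC was present in 1 of the 15, Hmgcs1, and in 1.22% of the 9104. These matches describe letters in a fixed window and do not show that a factor binds there.

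Some genes that regulate or use the route rose as well. Of 10 measured genes for SREBP regulation and sterol uptake, 4 rose and none fell. Srebf2, the gene of SREBP-2 itself, had 162 and 164 CPM at 3 h, against 126 and 136 CPM at 1 h (log2 difference 0.31). Insig1, the sterol-dependent anchor that holds SREBP in the endoplasmic reticulum, rose by 0.32 and the sterol carrier Stard4 by 0.38. Stard4 had 15.8 and 16.6 CPM at 3 h, 12.2 and 12.3 CPM at 1 h and 14.8 and 16.1 CPM in control. These 3 calls each depended on some AmTARS library: Srebf2 was lost without AmTARS 1 h replicate 2 (adjusted p = 0.0614), Insig1 without AmTARS 1 h replicate 3 (adjusted p = 0.0875) and Stard4 without any 1 of the 4 (adjusted p up to 0.26). All 3 also rose with Pam3CSK4, and the interaction passed for none of the 10.

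Lipid genes outside sterol synthesis were mixed. Scd2, a desaturase that makes monounsaturated fatty acids, had 102 and 106 CPM at 3 h of AmTARS, against 67.9 and 68.2 CPM at 1 h (log2 difference 0.60, SE 0.05, adjusted p = 1.68e-06). The control had 75.5 and 77.9 CPM, below both 3 h libraries and above both 1 h libraries. With Pam3CSK4 Scd2 went the opposite way, at 60.4 and 54.4 CPM at 3 h, against 67.8 and 69.5 CPM at 1 h (log2 difference -0.26), and the interaction passed (adjusted p = 2.17e-07). Scd2 and Acsl1 were the 2 of 15 fatty acid genes that rose, and none fell. Of 14 LXR targets and efflux genes, Scd2 and the cholesterol exporter Abca1 rose and the exporter Abcg1 fell. Abca1 had 126 and 139 CPM at 3 h, against 102 and 94.2 CPM at 1 h (log2 difference 0.43). The control had 143 and 137 CPM, above both 1 h libraries of Abca1. Its 3 h mean of 132 CPM was not above the control mean of 140 CPM. Abcg1 had 79.3 and 84.9 CPM at 3 h, against 97.1 and 99.4 CPM at 1 h (log2 difference -0.26), and lost its call without any 1 of the 4 AmTARS libraries (adjusted p up to 0.251).

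Of 25 measured NF-kB subunits, targets and feedback genes, 12 rose, Nfkbia fell and 12 did not pass, with a median log2 difference of 0.14. Besides Irak3 and Sod2, the largest rises were of Tnip3, Nfkbie and Nfkb2. Tnip3, a partner of the ubiquitin-editing enzyme A20 that restrains NF-kB, had 59.4 and 51.6 CPM at 3 h, against 36.0 and 35.9 CPM at 1 h (log2 difference 0.61, SE 0.06, adjusted p = 8.95e-06). Nfkbie, which codes for the inhibitor IkB-epsilon, had 69.2 and 71.2 CPM at 3 h, against 46.8 and 50.4 CPM at 1 h (log2 difference 0.52). Nfkb2, the gene of the p100 precursor, had 131 and 129.6 CPM at 3 h, against 92.9 and 93.3 CPM at 1 h (log2 difference 0.48). For these 3 genes the 1 h libraries were above the control libraries by small amounts, control standing at 33.4 and 33.4 CPM for Tnip3, 40.8 and 39.6 CPM for Nfkbie and 88.4 and 81.7 CPM for Nfkb2. Icam1, an adhesion molecule, rose by 0.41 and Birc3, an inhibitor of apoptosis, by 0.32.

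Nfkbia, which codes for IkB-alpha and was named after its value was seen, had 188 and 177 CPM at 3 h, against 215 and 212 CPM at 1 h (log2 difference -0.23, SE 0.05, adjusted p = 0.0247). Both times were above the control level of 118 and 119.7 CPM. This call was lost without any 1 of the 4 AmTARS libraries (adjusted p up to 0.397). With 1 AmTARS library left out, the number of NF-kB genes that rose was 8 without 1 h replicate 2, 9 without 1 h replicate 3, 10 without 3 h replicate 1 and 8 without 3 h replicate 3. Of the 13 calls, 8 were kept whichever library was left out, among them all those of Irak3, Sod2, Tnip3, Nfkbie, Nfkb2, Icam1 and Birc3.

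Of 16 measured inflammatory cytokines, Tnf fell, none rose and 15 did not pass. Tnf (chr17:35199381-35202007, minus strand) had 49.0 and 49.1 CPM at 3 h, against 64.0 and 71.7 CPM at 1 h, while the control had 23.7 and 23.6 CPM. The 3 h libraries were below both 1 h libraries and still above control, with a log2 difference of -0.46 (SE 0.07, adjusted p = 0.00069). This call was kept whichever library was left out, but not in the fit without a variance trend on level. Il1b had 45.2 and 45.1 CPM at 3 h, against 42.2 and 47.1 CPM at 1 h (log2 difference 0.02, adjusted p = 0.982), and the groups overlapped. Il6 had 2.97 and 2.52 CPM at 3 h, against 1.71 and 2.85 CPM at 1 h (log2 difference 0.21, adjusted p = 0.699), and Il12b had 1.48 and 1.63 CPM at 3 h, against 1.76 and 1.55 CPM at 1 h (log2 difference -0.05). At these low levels a small change was not detectable. Il10 and Ifnb1 were not analysed here.

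Of 16 measured chemokines, 2 rose and none fell. Cxcl1 and Cxcl2, which attract neutrophils, had log2 differences of 0.04 and 0.01 and did not pass. Cxcl2 had 47.1 and 46.7 CPM at 3 h, against 43.7 and 49.6 CPM at 1 h, and 16.7 and 18.8 CPM in control, so both times lay above control without a detectable step between them. Cxcl3, of the same family, had 45.3 and 42.9 CPM at 3 h, against 33.3 and 30.6 CPM at 1 h (log2 difference 0.45). The interferon-inducible Cxcl10 had 11.5 and 12.8 CPM at 3 h, against 8.11 and 7.30 CPM at 1 h (log2 difference 0.60). Both rises were lost without any 1 of the 4 AmTARS libraries, with adjusted p up to 0.216 for Cxcl3 and 0.291 for Cxcl10. Among 26 interferon response genes, Cxcl10 and Mx1 rose and none fell, where 1.81% of all genes rose and 0.57% fell. Mx1, an antiviral GTPase, had 44.0 and 48.0 CPM at 3 h, against 31.8 and 36.3 CPM at 1 h (log2 difference 0.42), a call lost without AmTARS 1 h replicate 2 or AmTARS 3 h replicate 3 (adjusted p up to 0.0958).

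Of 21 immediate-early transcription factors, 1 fell and none rose, where 0.57% of all genes fell and 1.81% rose. That gene was Junb, an AP-1 subunit, with 261 and 256 CPM at 3 h, against 282 and 342 CPM at 1 h (log2 difference -0.26), a call lost without AmTARS 1 h replicate 3, AmTARS 3 h replicate 1 or AmTARS 3 h replicate 3 (adjusted p up to 0.446). Egr1 had 8.06 and 8.06 CPM at 3 h, against 6.67 and 8.29 CPM at 1 h (log2 difference 0.10, adjusted p = 0.74). Among 12 inhibitors of cytokine signalling, Socs3 fell and none rose, with 54.8 and 60.7 CPM at 3 h, against 67.8 and 72.8 CPM at 1 h (log2 difference -0.28). Among 13 regulators of mRNA decay, Zc3h12c rose by 0.37, and Zfp36, whose protein destabilises Tnf mRNA, had 131 and 135 CPM at 3 h, against 151 and 158 CPM at 1 h (log2 difference -0.21). These 3 calls were each lost without at least 3 of the 4 AmTARS libraries in turn, with adjusted p up to 0.342 for Socs3, 0.199 for Zc3h12c and 0.169 for Zfp36.

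Among components of the TLR2 pathway, the receptor gene Tlr2 rose. It kept its call whichever library was left out, but not in the fit without a variance trend on level. It had 364 and 365 CPM at 3 h, against 282 and 272 CPM at 1 h (log2 difference 0.40, SE 0.06, adjusted p = 0.000245), and 245 and 249 CPM in control. Its partner Tlr1 had 31.8 and 35.1 CPM at 3 h, against 26.0 and 23.2 CPM at 1 h (log2 difference 0.43). The co-receptor Cd14 had 1049 and 1045 CPM at 3 h, against 801 and 897 CPM at 1 h (log2 difference 0.30). The order from control to 1 h to 3 h was upward for Tlr2 and Cd14, while Tlr1 at 1 h was below its control level of 29.2 and 29.3 CPM. Of 21 components of the TLR2 pathway these 3 rose and the kinase gene Map3k8 fell, by 0.25 on the log2 scale. Tlr1 was lost without AmTARS 3 h replicate 3 (adjusted p = 0.0612), Cd14 without AmTARS 1 h replicate 2, AmTARS 3 h replicate 1 or AmTARS 3 h replicate 3 (adjusted p up to 0.391), and Map3k8 without any 1 of the AmTARS, control or Pam3CSK4 1 h libraries (adjusted p up to 0.451). Of 18 MAP kinase feedback genes, Mapkapk2 rose by 0.35, Spred1 by 0.24 and Dusp6 by 0.20, and each of these calls was lost without at least 3 of the AmTARS libraries in turn (adjusted p up to 0.0906, 0.291 and 0.391), that of Dusp6 also without either control library.

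Among 17 genes of M1-type activation, the state linked with bacterial stimuli, 8 rose and 2 fell, the falls being Tnf and Socs3. Irg1, Fpr1, Gpr84 and Fpr2 led the rises. Fpr2, a formyl peptide receptor whose annotation overlaps Fpr3 on the same strand, had 88.9 and 78.6 CPM at 3 h, against 56.2 and 53.4 CPM at 1 h (log2 difference 0.60). Nos2, the inducible nitric oxide synthase, had 18.0 and 19.1 CPM at 3 h, against 14.2 and 13.7 CPM at 1 h (log2 difference 0.39, adjusted p = 0.0338), with control at 16.6 and 17.2 CPM. The co-stimulatory genes Cd40 and Cd86 rose by 0.40 and 0.24, and the scavenger receptor gene Marco by 0.33. Nos2 and Marco lost the call without any 1 of the 4 AmTARS or 2 control libraries (adjusted p up to 0.329 and 0.373), Cd86 without any 1 AmTARS library (up to 0.239) and Cd40 without AmTARS 1 h replicate 2, AmTARS 1 h replicate 3 or AmTARS 3 h replicate 1 (up to 0.361). With 1 AmTARS library left out, the number of M1-type genes that rose was 4 or 5. None of 12 M2-type genes passed, where 2.38% of all genes did, a share at which a list of this length need hold none. Arg1 had 32.9 and 35.3 CPM at 3 h, against 32.0 and 26.4 CPM at 1 h (log2 difference 0.22), and the mannose receptor gene Mrc1 had 70.1 and 73.4 CPM at 3 h, against 68.9 and 71.7 CPM at 1 h (log2 difference 0.03).

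Other surface and effector genes changed singly. Of 17 scavenger and C-type lectin receptors, 4 rose and none fell, namely Clec4e, Marco, Clec5a (0.33) and Msr1 (0.26). Of 14 inflammasome and pyroptosis genes, Txnip, Nlrp3 (0.36) and Casp4 (0.27) rose. Of 22 regulators of apoptosis, Bcl2a1a (0.53) and Birc3 rose. Bcl2a1a has near-identical paralogs, so its reads are uncertain. Of 22 actin and adhesion genes, 4 rose and 1 fell. Marcksl1, an actin-binding substrate of protein kinase C, led with 209.9 and 202 CPM at 3 h, against 129 and 135 CPM at 1 h and 94.4 and 101 CPM in control (log2 difference 0.64, SE 0.09). Icam1 and Cdc42ep2 (0.37) also rose. Filamin A, Flna (0.24), rose from a mean of 450 CPM to 531 CPM, below the 598 CPM of control. The integrin gene Itgav fell (-0.27). Of these, Clec4e, Txnip, Birc3, Marcksl1 and Icam1 kept their call whichever library was left out, and the others lost it without at least 1 AmTARS library, with adjusted p from 0.073 for Msr1 to 0.424 for Flna at its highest.

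Of 16 NRF2 targets, which code for antioxidant enzymes and transporters, 5 rose, none fell and 11 did not pass. Slc7a11, the cystine importer that feeds glutathione synthesis, had 83.0 and 85.7 CPM at 3 h, against 60.3 and 56.0 CPM at 1 h (log2 difference 0.53, SE 0.07, adjusted p = 0.00023). Txnrd1, a thioredoxin reductase, had 232 and 235 CPM at 3 h, against 178 and 184 CPM at 1 h (log2 difference 0.37). Hmox1, which breaks down haem, had 915 and 953 CPM at 3 h, against 720.1 and 776 CPM at 1 h (log2 difference 0.32). Srxn1, which restores peroxiredoxins, rose by 0.37 and Gclm, a subunit of the enzyme of the first step of glutathione synthesis, by 0.29. Hmox1 and Srxn1 lost the call without AmTARS 1 h replicate 2 or AmTARS 3 h replicate 3 (adjusted p up to 0.176 and 0.123), and Gclm also without AmTARS 3 h replicate 1 (up to 0.226).

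Of 12 metal-response genes, 3 rose, 1 fell and 8 did not pass. The protein of the metallothionein gene Mt2 binds zinc and copper. Mt2 was at 26.8 and 28.6 CPM in control, 36.5 and 37.0 CPM at 1 h and 51.9 and 50.2 CPM at 3 h of AmTARS. It was thus higher at 1 h than in the control, which has no stated time, and higher again at 3 h. The log2 difference of 3 h against 1 h was 0.46 (SE 0.06, adjusted p = 6.77e-05). Mt1 had 175 and 156 CPM at 3 h, against 134 and 131 CPM at 1 h (log2 difference 0.31). Slc11a2, an importer of iron and other divalent metals, had 106 and 109.7 CPM at 3 h, against 78.4 and 78.6 CPM at 1 h (log2 difference 0.45), and the zinc importer gene Slc39a10 fell (-0.39). Mt1 lost the call without AmTARS 1 h replicate 2, AmTARS 1 h replicate 3 or AmTARS 3 h replicate 1 (adjusted p up to 0.161). With Pam3CSK4 the metallothioneins had no such rise from 1 h to 3 h. Mt2 had 38.4 and 40.9 CPM at 3 h, against 40.4 and 41.2 CPM at 1 h (log2 difference -0.04, interaction adjusted p = 0.000294).

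Of 25 glycolysis and HIF-1 genes, 4 rose and none fell. Besides Egln3, these were the glucose importer gene Slc2a1, with 145 and 156 CPM at 3 h, against 114 and 119.8 CPM at 1 h (log2 difference 0.36), the lactate exporter gene Slc16a3 (0.36) and the hexokinase gene Hk2 (0.25). These 3 calls were lost without AmTARS 1 h replicate 2 or AmTARS 3 h replicate 3 (adjusted p up to 0.14, 0.143 and 0.344). Of 10 Kruppel-like factors, Klf10 rose (0.24), a call lost without at least 1 AmTARS library. Its mean was 54.3 CPM at 3 h, 46.0 CPM at 1 h and 62.1 CPM in control. In 14 lists no member passed, which with 2.38% of all genes called says little about lists of this length. These covered M2-type activation, ATF4 and unfolded protein stress, heat-shock chaperones, cytosolic aminoacyl-tRNA synthetases, oxidative phosphorylation, ribosomal proteins, ribosome biogenesis, the proteasome, lysosomes, the circadian clock, the cell cycle, histone regulators and CREB targets. In the last list the log2 difference of Crem was -0.12 (adjusted p = 0.568). At an unadjusted p under 0.05 the count over all genes was 1376, so smaller changes are not shown to be absent.

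**Figure D4:**
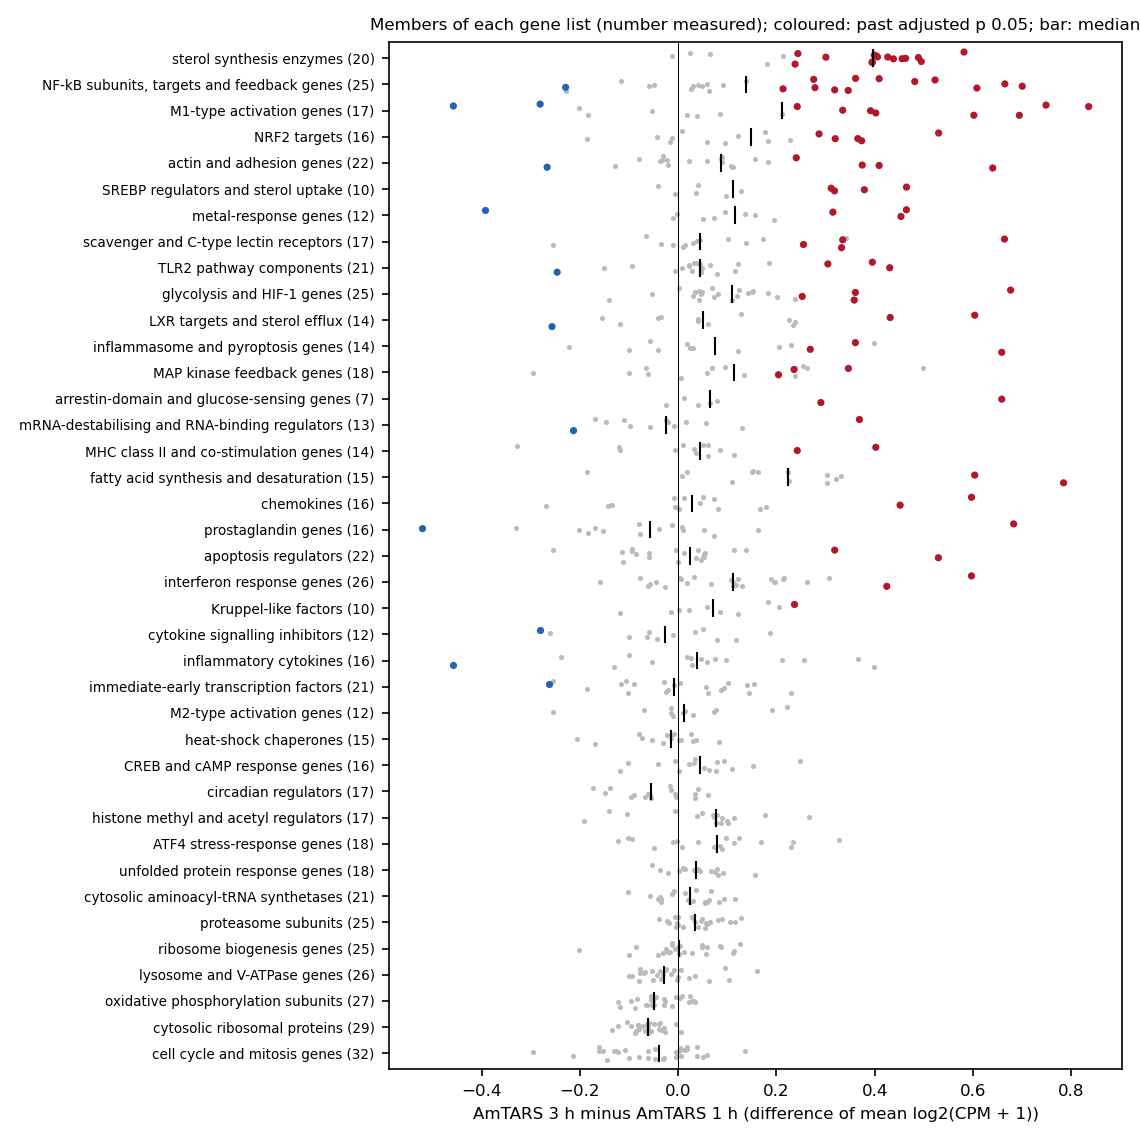
Log2 difference (AmTARS 3 h minus AmTARS 1 h) of each measured member of 39 gene lists, ordered by the number of members that changed, with the list median as a bar and members past an adjusted p of 0.05 in colour. The sterol enzymes sit to the right with a median of 0.40 and 15 of 20 coloured, while the ribosomal proteins, proteasome and cell cycle genes cluster near 0 with none coloured.

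The 65 genes that fell included few members of these lists. Slc5a3, the importer of the osmolyte myo-inositol, had 5.91 and 6.21 CPM at 3 h, against 10.1 and 9.81 CPM at 1 h (log2 difference -0.64, SE 0.11, adjusted p = 0.00119). The control libraries, with no stated time, were above both with 12.6 and 13.7 CPM. Mrps6, a mitochondrial ribosomal protein gene, fell by 0.41. It shares exons with Slc5a3 on the same strand of chromosome 16, so reads of the 2 genes cannot be fully separated. Hpgd, 15-hydroxyprostaglandin dehydrogenase, had 8.84 and 9.40 CPM at 3 h, against 13.3 and 13.7 CPM at 1 h (log2 difference -0.52). Of 16 prostaglandin genes, Ptges rose and Hpgd fell. Slco4a1, an organic anion transporter gene, was the most abundant of the 12 largest falls, with 86.6 and 90.3 CPM at 3 h, against 112 and 120.2 CPM at 1 h (log2 difference -0.39).

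The other large falls were of genes at low levels, none above the 24.0 CPM of Pald1 in any AmTARS library. They were Mir703, an annotated microRNA gene read here in a poly-A library (-0.60), the calponin gene Cnn1 (-0.52), the ADP receptor gene P2ry1 (-0.52), Zfyve28 (-0.48), Lrrc14b (-0.47), Pald1 (-0.42) and Slc39a10. The 5 CPM required of a named fall was reached by Mir703, Cnn1 and Zfyve28 in the 1 h mean alone. Because 1 CPM is added before the logarithm, the log2 difference understates the change of such rare transcripts. Of the 12 largest falls, Slc5a3, Hpgd and Tnf kept their call whichever library was left out, though Hpgd and Tnf lost it without a variance trend. The other 9 lost it without at least 1 of the 4 AmTARS libraries, with adjusted p of up to 0.0835 (Slco4a1) to 0.424 (Slc39a10), and Slc39a10 also without either control library.

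The time course with Pam3CSK4 was larger and shared most of these genes. Between 1 h and 3 h of Pam3CSK4, 3597 genes (31.5%) changed. Of the 206 genes that rose with AmTARS, 186 (90.3%) also rose with Pam3CSK4, which is 10.0% of the genes that rose there, 3 fell and 17 did not pass. Of the 65 that fell with AmTARS, 54 (83.1%) fell with Pam3CSK4, which is 3.09% of the genes that fell there, 4 rose and 7 did not pass. Over all genes 16.2% rose and 15.3% fell with Pam3CSK4. The 2 time changes share no library, but the spread of each gene was taken from all 10 libraries. The 2 sets of calls are therefore not independent. The median Pam3CSK4 log2 difference of the 206 genes was 0.81, against 0.34 with AmTARS, and across all 11407 genes the 2 changes had a Spearman correlation of 0.50, a description in which genes are not independent. Irg1 had 882 and 1154 CPM at 3 h of Pam3CSK4, against 198 and 186 CPM at 1 h (log2 difference 2.39). The rise was larger than with AmTARS (interaction adjusted p = 2.23e-08), and at 1 h the values under both ligands were close to control.

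The interaction passed for 155 of the 206 genes that rose with AmTARS. In 139 of these the Pam3CSK4 rise was the larger, and in 16 the AmTARS change was the larger or the directions were opposite. All 13 NF-kB genes that changed with AmTARS were among those with a higher log2 difference for Pam3CSK4. For Cxcl3 the log2 difference was 0.45 with AmTARS and 2.89 with Pam3CSK4, with 219 and 326 CPM at 3 h of Pam3CSK4, against 35.7 and 34.7 CPM at 1 h. Il1b, which did not change with AmTARS, had 206 and 332 CPM at 3 h of Pam3CSK4, against 59.9 and 58.8 CPM at 1 h (log2 difference 2.12, interaction adjusted p = 1.35e-07). The immediate-early Egr1 was the reverse case: it fell with Pam3CSK4 to 7.41 and 7.82 CPM at 3 h, against 21.6 and 20.1 CPM at 1 h, where the AmTARS libraries had no detectable change (interaction adjusted p = 2.68e-07).

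In all, 7 genes passed the test in opposite directions under the 2 ligands. The interaction passed for all 7, but it is the difference of the same 2 changes in the same fit. For genes chosen in this way it adds no separate evidence. Socs3, Nfkbia, Tnf and Ppp1r10 fell with AmTARS and rose with Pam3CSK4. Txnip, Scd2 and Mt1 rose with AmTARS and fell with Pam3CSK4. For Tnf the Pam3CSK4 libraries had 186 and 228 CPM at 3 h, against 165 and 165 CPM at 1 h (log2 difference 0.32), where the AmTARS change was -0.46 (interaction adjusted p = 2.14e-05). For Socs3 they had 165 and 194 CPM at 3 h, against 122 and 119 CPM at 1 h (log2 difference 0.56, interaction adjusted p = 5.42e-06). Every AmTARS library of both genes was below every Pam3CSK4 library. Ppp1r10, a regulatory subunit of protein phosphatase 1 named after its value was seen, had 42.0 and 43.7 CPM at 3 h of AmTARS, against 51.9 and 50.2 CPM at 1 h, with control at 53.4 and 50.4 CPM (log2 difference -0.25, adjusted p up to 0.259 without 1 AmTARS library). Of these 7, Tnf, Txnip and Scd2 kept their AmTARS call whichever library was left out.

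**Figure D5:**
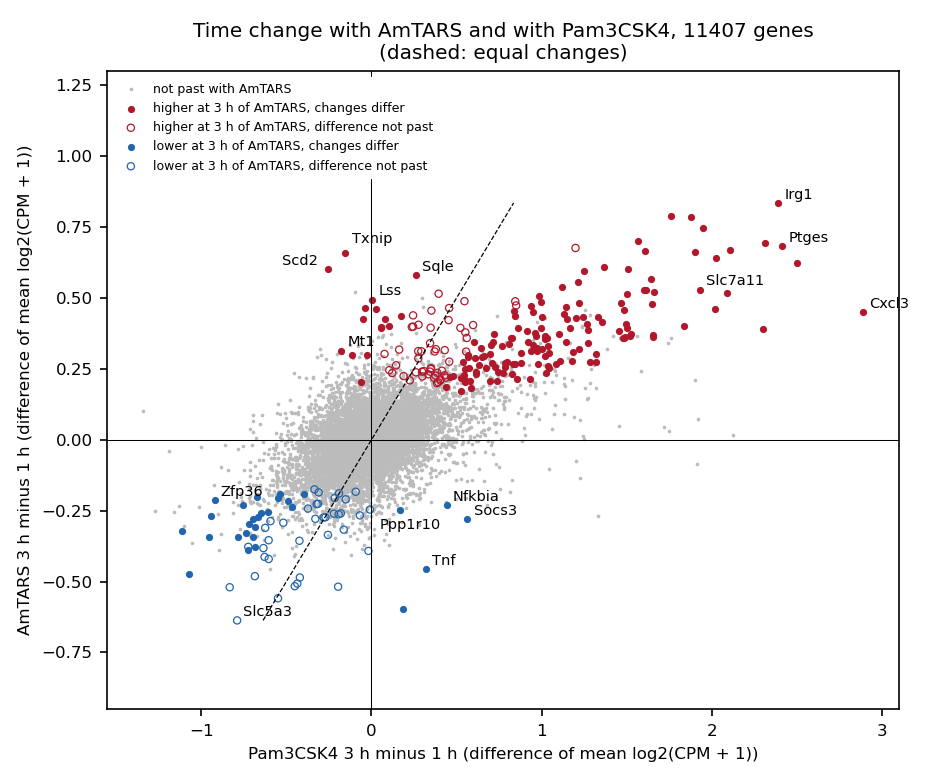
Each point is 1 of 11407 genes, with the log2 difference 3 h minus 1 h of Pam3CSK4 on the horizontal axis and of AmTARS on the vertical axis, and genes that changed with AmTARS in red (206 higher) and blue (65 lower), filled where the 2 changes differed. Most red points lie right of the dashed line of equal change, while Txnip, Scd2 and Mt1 lie upper left and Tnf, Socs3, Nfkbia and Ppp1r10 lower right.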

How the data were processed

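RNA was poly-A selected and sequenced as stranded libraries, per the labels' protocols. The submitters' processing notes name STAR 2.5.1, R 3.3.0 and the genome build mm10. How reads were counted, with which annotation, and how libraries were scaled is not given in the sources used here. In the deposited file are log2(CPM + 1) values, made by the authors, for 11617 gene symbols in 10 libraries. With 1 factor per library these turned back into whole reads for 100% of values, to within 0.1 read, which sum to 27398791 to 37559810 over the genes of a library. No per-sample column was left out.

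The log2 values of all 5 groups entered a single limma fit (version 3.58.1, R 4.3.3) with 1 mean for each group and a variance trend on level (residual degrees of freedom 5, prior 14.7). The filter was a mean of 1 CPM and the pseudocount the deposited 1. Contrasts were 3 h minus 1 h for AmTARS, the same for Pam3CSK4, and the difference of the 2 (interaction), each adjusted by Benjamini-Hochberg over 11407 genes at a threshold of 0.05. The SE comes from a spread shared by all groups. Positions, lengths and GC content came from GENCODE M21, which matched 11573 symbols, 356 of them through RefSeq synonyms. Motifs were searched in RefSeq promoter windows by exact letters.

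The comparison, the 39 gene lists and the rule for named genes were chosen with earlier results of these data known. The rule took the 12 largest rises and 12 largest falls with a mean of at least 5 CPM in the AmTARS group where the gene was higher and non-overlapping libraries, leaving out Gm and Rik symbols, 18 fixed genes (16 tested), and up to 5 changed members of each list, or the member that differed most where none changed. Genes outside it are said to be so where named, and a few genes that it covers are not reported here. A list's members are those among the genes tested. Alternatives were other filters, pseudocounts, scalings, spread estimates, thresholds, a replicate term, a length and GC correction and leaving out each library. The analysis of recovered reads with voom in limma, the fit on matched genes without correction and the list counts under each setting were added after seeing the data.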

Additional observations from a re-analysis of the deposited data

Results flagged for a closer look

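For 73 of the genes named above the change from 1 h to 3 h with AmTARS differed from that with Pam3CSK4, by the interaction test in limma (adjusted p under 0.05), in which 9.2% of all genes passed. These genes were mostly chosen for their AmTARS change, and no group had over 2 libraries. Values are AmTARS change minus Pam3CSK4 change on the log2 scale. Of the genes that rose with AmTARS, 42 had a lower value with AmTARS than with Pam3CSK4. Differences over 1 were Cxcl3 (-2.44), Nos2 (-1.91), Ptges (-1.73), Gpr84 (-1.62), Irg1 (-1.55), Ifi205 (-1.44), Cd40 (-1.43), Slc7a11 (-1.40), Marcksl1 (-1.39), Zc3h12c (-1.28), Clec4e (-1.24), Fpr1 (-1.20), Cdc42ep2 (-1.15), Nfkbie (-1.14), Nlrp3 (-1.12), Tlr2 (-1.11), Acsl1 (-1.09), Icam1 (-1.08) and Bcl2a1a (-1.07). Smaller ones were Nfkb2 (-0.98), Wnt6 (-0.97), Sod2 (-0.95), Fpr2 (-0.91), Irak3 (-0.86), Abca1 (-0.81), Spred1 (-0.79), Tlr1 (-0.77), Tnip3 (-0.76), Cd14 (-0.74), Casp4 (-0.71), Clec5a (-0.70), Birc3 (-0.68), Slc2a1 (-0.67), Cxcl10 (-0.65), Marco (-0.61), Txnrd1 (-0.60), Mapkapk2 (-0.57), Msr1 (-0.47), Slc16a3 (-0.47), Slc11a2 (-0.39), Srxn1 (-0.35) and Arrdc4 (-0.28).

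Of the genes that rose with AmTARS, 14 had a higher value there than with Pam3CSK4, and 8 of these are sterol enzymes described above. They were Scd2 (0.86), Txnip (0.81), Mt2 (0.50), Mt1 (0.49), Lss (0.49), Mx1 (0.47), Acat2 (0.44), Mvd (0.41), Fdps (0.35), Msmo1 (0.34), Sqle (0.32), Nsdhl (0.30), Fdft1 (0.27) and Dusp6 (0.27). Among genes that fell with AmTARS, the value was below that with Pam3CSK4 for Socs3 (-0.84), Mir703 (-0.78), Tnf (-0.78), Nfkbia (-0.67) and Ppp1r10 (-0.42), and above it for Zfp36 (0.71), Lrrc14b (0.60), Abcg1 (0.39) and Slco4a1 (0.34). Genes without a detected AmTARS change also differed, namely Il1b (-2.11), Il6 (-1.69), Cxcl1 (-1.68), Cxcl2 (-1.23), Egr1 (1.44), Mvk (0.42), Dhcr7 (0.38) and Pmvk (0.35).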

How the results depend on the processing

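No named gene whose change passed in the main fit or in the alternative changed direction, and no count did. The sign of changes that passed in neither fit was less stable. For Il1b, Cxcl2 and Egr1, whose AmTARS rises did not pass, AmTARS 1 h replicate 3 alone lay above both AmTARS 3 h libraries. The 271 changed genes (206 higher, 65 lower) became 492 (349 higher, 143 lower) with the AmTARS libraries alone, 446 (144 lower) with the length and GC correction and 112 lower without the Pam3CSK4 3 h libraries, and all 271 kept their calls in these fits. Without an intensity trend 63 (55 higher, 8 lower) were called, and at an adjusted p of 0.01 there were 129 (112 higher, 17 lower). Leaving out 1 library gave 89 to 381 changed, 76 to 272 higher and 8 to 109 lower genes. The fewest came without an AmTARS library, and the most, 380 and 381, without Pam3CSK4 3 h replicate 2 or 3. The cause was not tested. The difference of the time changes passed for 1049 genes, 680 without a trend, 616 at 0.01 and 675 to 1333 with 1 library left out. In these fits the lone library of a group was assumed to vary like the others.

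Whether the replicate numbers pair the libraries cannot be decided here. Same-numbered deviations from group means correlated at -0.21 to 0.20, and the 2 AmTARS groups share 1 number. With 2 libraries a group the deviations are exact opposites, so several of these values repeat each other. With the replicate block 210 genes changed (180 higher, 30 lower) and 672 passed the interaction. With the block and the length and GC correction together 319 changed. Of 91 named genes past the threshold, 36 kept their call in all 10 leave-one-out fits, 59 lost it without a trend and 25 with the block. Among the calls lost without a trend were those of Tnf, Hpgd, Tlr2, Gpr84, Ptges, Slc7a11, Txnrd1 and Marcksl1, which were kept whichever library was left out. The other filters, pseudocounts and scalings, robust empirical Bayes and voom on the recovered reads (271 genes) kept each count within 1.5 times. At 2 libraries per group small changes, above all falls at low levels, are near the limit of detection.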
